A study of Mus musculus with 4 samples.

Results

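The genes described here are the 32 mouse genes that carry a numbered cadherin (Cdh) or protocadherin (Pcdh) symbol on the array, chosen by symbol alone from 18193 measured genes. They comprise 6 genes counted as type I cadherins, 11 type II cadherins, 4 other cadherins, 3 delta-1 protocadherins, 5 delta-2 protocadherins and 3 other protocadherins. The clustered alpha, beta and gamma protocadherins and the Cdhr genes have symbols of another form and are not among them. RNA of 4 kinds of mouse cell was hybridised to 1 Affymetrix array each. The growth protocol, given alike for every sample, speaks of HB9-ES cells. For the array of undifferentiated embryonic stem (ES) cells it says that they were maintained with leukemia inhibitory factor on embryonic fibroblasts treated with mitomycin C. A second array holds cells labelled HB9-GFP+, collected by sorting on day 8 of differentiation of that transgenic line. The factors named for that differentiation are Sonic hedgehog, retinoic acid at 0.1 uM and purmorphamine at 0.2 uM from day 5 to day 9, a window that ends after the sort. Another array holds sorted Sox1 neural stem cells, and the last holds cerebellar granule cells of postnatal day 6. The labels do not state the origin of the Sox1 cells or the marker of their sort, the isolation of the granule cells, the strain and number of animals behind them, or any pooling of RNA.

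Cadherins are calcium-dependent adhesion proteins of the cell surface. Classical cadherins bind the same or a related cadherin on the neighbouring cell and, through beta-catenin, p120-catenin and alpha-catenin inside the cell, hold on to the actin cytoskeleton. E-cadherin joins ES cells into compact colonies, N-cadherin takes its place when the neural plate forms, and type II cadherins and delta-protocadherins are expressed in differing combinations by groups of neurons as circuits are laid down.

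Values are signal intensities. The low level was set at a signal of 78.8, the mean of the 4 arrays' median log2 signals, and a gene was called detected at 1 log2 unit above it, a signal of 158. A gene was called higher or lower between 2 arrays where it was detected on the brighter one and differed by at least 2 log2 units (4-fold), after values under the low level were set to it. Where the dimmer signal lay under the low level, the fold is a lower bound, written "at least". Each group is a single array, so no difference has a replicate error or a test, and every statement compares these arrays.

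The arrays were checked against markers of their labelled cells. All 9 measured pluripotency markers were detected in ES cells and on the HB9-GFP+-labelled array, 5 in Sox1 cells and none in granule cells. All 10 neural stem cell markers were detected in Sox1 cells, but so were 9 in granule cells, 7 in ES cells and 6 on the HB9-GFP+-labelled array. Their summed signal was highest in Sox1 cells, at 74236, against 47996 in granule cells and 28698 in ES cells. Of 8 markers of choroid plexus and meninges, 2 were detected in Sox1 cells, 2 on the HB9-GFP+-labelled array, 1 in ES cells and none in granule cells. Their summed signal was 1819, 2911, 1168 and 611 in that order. Of 10 motor neuron markers only Olig2 was detected on the HB9-GFP+-labelled array, at 321, while Mnx1, which encodes HB9, was at 15.9. That array therefore goes against its label and is called by its label only. It also held 8 of 10 fibroblast markers above detection, with a summed signal of 16879 against 1145 in ES cells. In granule cells 8 of 9 granule neuron markers were detected, all but Gabra6 (79.9), and so were 8 of 8 markers of astrocytes and Bergmann glia, 6 of 7 of the oligodendrocyte lineage, 7 of 8 of Purkinje cells and interneurons, 7 of 10 of fibroblasts and 4 of 8 of microglia. Summed over those 5 lists the granule array was the brightest except for fibroblast markers, where it stood at 7759. The share of these cells in any cadherin value was not tested. Some markers stand in 2 lists, Pdgfra in those of fibroblasts and the oligodendrocyte lineage and Slc1a3 in those of neural stem cells and astrocytes. Pax6 is in those of neural stem cells and granule neurons. In RNA from many cells, fewer cells of a type and less RNA per cell cannot be told apart. The ratio of 3' to 5' actin control signals was 4.55 in ES cells, 2.77 on the HB9-GFP+-labelled array, 5.08 in Sox1 cells and 2.29 in granule cells, and that of Gapdh was 1.99, 1.37, 3.68 and 2.70 in the same order. Both ratios were highest in Sox1 cells, while the other arrays were ordered differently by them.

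Cadherins were detected more often on the neural arrays. Of the 32 genes, 6 were detected in ES cells (18.8%), 6 on the HB9-GFP+-labelled array, 11 in Sox1 cells (34.4%) and 18 in granule cells (56.2%). Over all genes the detected share was 51.7%, 51.3%, 51.6% and 52.5% in the same order. With detection at 2 log2 units above the low level the counts were 1, 1, 10 and 11, so most of the gap between granule and Sox1 cells rested on signals between both limits. Only Pcdh8 and Pcdh19 were detected on all 4 arrays, 5 genes on 3 arrays, 3 genes on 2 and 12 genes on 1, of which 9 were detected in granule cells alone. The shares of all genes detected on exactly 1, 2, 3 or 4 arrays were not counted. The 10 genes detected nowhere were Cdh5, Cdh15, Cdh16, Cdh17, Cdh18, Cdh19, Cdh23, Cdh26, Pcdh1 and Pcdh12, with signals from 0.7 to 80.7. Of all genes 36.1% were detected on no array, so 10 of 32 is near that share. Cdh5 is the cadherin of vascular endothelium, and it stayed at or under 67.2 on every array, while 5 of 10 endothelial markers were detected in ES cells and none in granule cells.

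**Figure D1:**
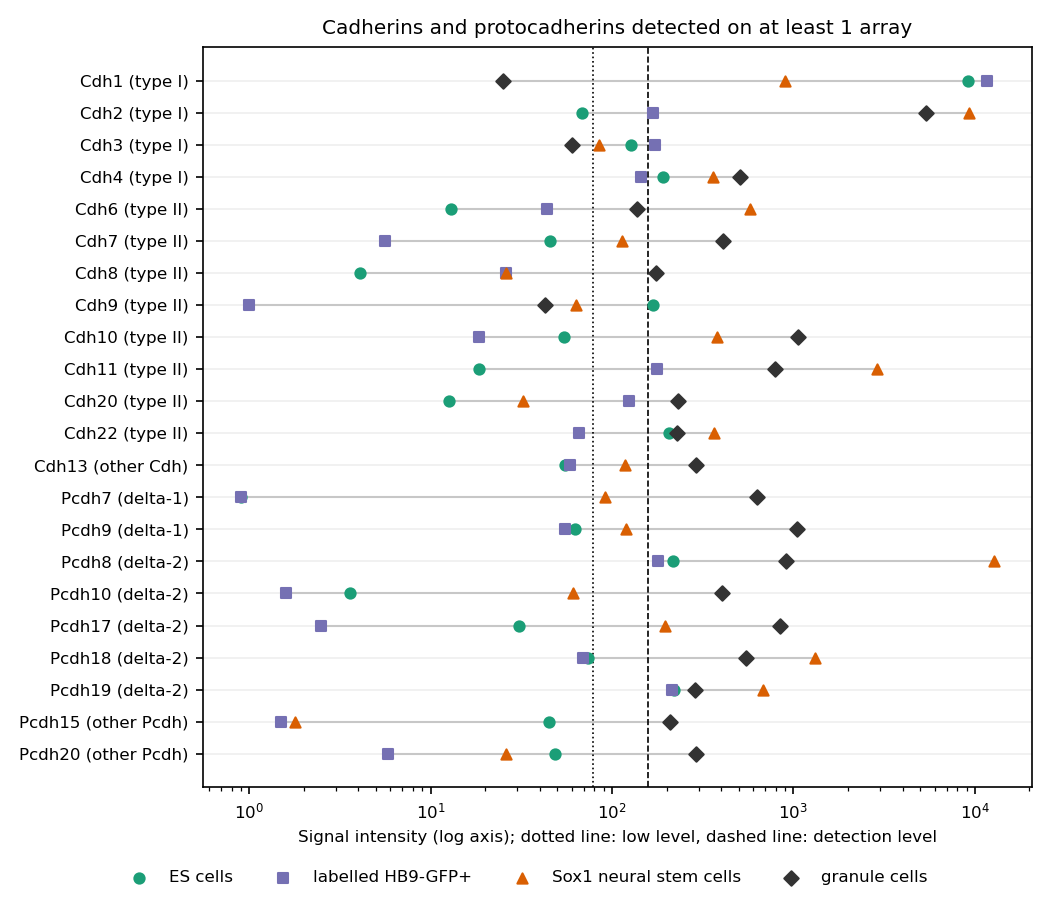
Signal of each of the 22 detected cadherins and protocadherins (rows) on the 4 arrays, on a log axis, 1 point per array, with the low level of 78.8 dotted and the detection level of 158 dashed. Cdh1 is brightest in ES cells and the HB9-GFP+-labelled array, Cdh2, Cdh11 and Pcdh8 in Sox1 cells, and Pcdh7, Pcdh9, Pcdh10 and Pcdh17 in granule cells.

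Among the type I cadherins, E-cadherin and N-cadherin changed places between the arrays. Cdh1, which encodes E-cadherin, had a signal of 9123 in ES cells, 11669 on the HB9-GFP+-labelled array, 895 in Sox1 cells and 25.0 in granule cells. It was thus high on both arrays where all 9 measured pluripotency markers were detected, and under the low level in granule cells. In Sox1 cells, where 5 of those markers were detected, it was lower but still above detection. The part of cells with these markers in that Sox1 signal was not tested. Against ES cells Cdh1 was 10.2-fold lower in Sox1 cells and at least 116-fold lower in granule cells. A further fall of at least 11.4-fold separated the granule array from the Sox1 array. Cdh2, which encodes N-cadherin, ran the other way at 68.5 in ES cells, 169 on the HB9-GFP+-labelled array, 9286 in Sox1 cells and 5406 in granule cells. Cdh2 was at least 118-fold higher in Sox1 cells and at least 68.6-fold higher in granule cells than in ES cells. On its other probe set the log2 differences were smaller, 3.19 for Sox1 cells and 3.37 for granule cells. That probe set was under the low level in ES cells, at 5.9, which fixes their sign. Both genes were detected in Sox1 cells and on the HB9-GFP+-labelled array, on the latter with Cdh2 just past detection. The other probe set of Cdh2 was undetected on the HB9-GFP+-labelled array, at 102.4. Cdh1 has 1 probe set, so no second measure of it exists on these arrays.

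The remaining type I genes moved little. Cdh4, the R-cadherin of retina and brain, was at 190.5 in ES cells, 144 on the HB9-GFP+-labelled array, 362 in Sox1 cells and 507 in granule cells, a spread that stayed under 4-fold in every comparison. Cdh3, which encodes P-cadherin, was above detection only on the HB9-GFP+-labelled array, at 173, with 128 in ES cells, 84.7 in Sox1 cells and 60.1 in granule cells. Cdh15, the M-cadherin of muscle, and Cdh26 were not detected.

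Of the 11 type II cadherins, 6 were detected in granule cells, 4 in Sox1 cells, 2 in ES cells and 1 on the HB9-GFP+-labelled array. Cdh11, a cadherin of mesenchyme and developing brain, was at 18.4 in ES cells, 176 on the HB9-GFP+-labelled array, 2874 in Sox1 cells and 796 in granule cells. It was at least 36.5-fold higher in Sox1 cells and at least 10.1-fold higher in granule cells than in ES cells. Its second probe set gave smaller differences, 2.35 and 1.03 log2 units. That probe set was under the low level in ES cells, at 8.8, which fixes their sign. Cdh11 was also past detection on the HB9-GFP+-labelled array, but only on its brighter probe set, while the second was at 29.6 there. That array carried 8 of 10 fibroblast markers, and their part in the Cdh11 value was not tested. Cdh10 was highest in granule cells, at 1058, with 380 in Sox1 cells, 54.5 in ES cells and 18.6 on the HB9-GFP+-labelled array. Its granule signal was at least 13.4-fold and its Sox1 signal at least 4.83-fold above ES cells. The second detected probe set of Cdh10 gave 1.84 and 0.65 log2 units, neither of them a call. Cdh6, a cadherin of early neural tube and kidney, was detected in Sox1 cells alone, at 576, against 138 in granule cells, 43.9 on the HB9-GFP+-labelled array and 13.0 in ES cells. It was at least 7.32-fold higher in Sox1 cells than in ES cells, and -2.07 log2 units separated the granule from the Sox1 array. The other probe set of Cdh6 was undetected on every array, at 109 in Sox1 and 73.6 in ES cells, a difference of 0.47 log2 units.

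Other type II genes were detected in granule cells at low signals. Cdh7 was at 408 there, 113 in Sox1 cells, 45.7 in ES cells and 5.6 on the HB9-GFP+-labelled array, so granule cells were at least 5.18-fold above ES cells. Cdh8 was detected in granule cells only, at 176, with 26.1 in Sox1 cells, 4.1 in ES cells and 26.0 on the HB9-GFP+-labelled array. Cdh20 was likewise detected there only, at 231, with 32.5, 12.7 and 123 in that order, and neither reached a 4-fold difference above the low level. Cdh22 was at 207 in ES cells, 66.1 on the HB9-GFP+-labelled array, 365 in Sox1 cells and 228 in granule cells. It was called lower, at least 4.64-fold, on the HB9-GFP+-labelled array than in Sox1 cells, a call that ends at -1.84 log2 units when 50 is added to each signal in place of the low level. Cdh9 was just above detection in ES cells, at 169, with 1.0 on the HB9-GFP+-labelled array, 63.5 in Sox1 cells and 42.5 in granule cells. Among cadherins of other structure, Cdh13, the T-cadherin that is anchored to the membrane by lipid and lacks a cytoplasmic tail, was detected in granule cells at 289.6, with 118 in Sox1 cells, 58.8 on the HB9-GFP+-labelled array and 55.3 in ES cells. Its difference from ES cells was 1.88 log2 units, short of a call, and 2.11 on another probe set.

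Promoter windows from RefSeq, 250 bases before to 50 bases after a start site, were matched for 20 of the 32 genes. Those of Cdh1, Cdh2, Cdh3, Cdh4, Cdh5, Cdh11, Cdh13, Cdh16, Cdh17, Cdh19, Pcdh1 and Pcdh12 were not used here. The windows of 4 delta-protocadherins and of Cdh10, all called higher in granule than in ES cells, are shown because they differ in their content of CG dinucleotides. Pcdh8 and Cdh10 were called higher in Sox1 than in ES cells too, and Pcdh7, Pcdh10 and Pcdh17 were not. CG is given in capitals and reads the same on both strands. They are, in GRCm38.p6, Pcdh7 at chr5:57717831-57718130 (plus strand), Pcdh8 at chr14:79771263-79771562 (minus strand), Pcdh10 at chr3:45378148-45378447 (plus strand), Pcdh17 at chr14:84443313-84443612 (plus strand) and Cdh10 at chr15:18820079-18820378 (plus strand).
Pcdh7: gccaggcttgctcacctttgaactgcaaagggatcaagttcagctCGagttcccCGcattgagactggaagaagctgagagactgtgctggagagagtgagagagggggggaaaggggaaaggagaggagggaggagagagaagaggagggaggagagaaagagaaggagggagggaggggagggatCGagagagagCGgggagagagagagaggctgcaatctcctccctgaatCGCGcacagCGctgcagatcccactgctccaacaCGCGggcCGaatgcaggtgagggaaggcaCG
Pcdh8: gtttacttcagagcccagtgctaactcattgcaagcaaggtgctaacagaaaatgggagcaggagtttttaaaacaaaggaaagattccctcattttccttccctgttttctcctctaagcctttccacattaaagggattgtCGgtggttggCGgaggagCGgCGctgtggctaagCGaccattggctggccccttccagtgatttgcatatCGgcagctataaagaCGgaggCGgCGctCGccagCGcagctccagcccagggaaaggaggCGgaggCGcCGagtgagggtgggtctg
Pcdh10: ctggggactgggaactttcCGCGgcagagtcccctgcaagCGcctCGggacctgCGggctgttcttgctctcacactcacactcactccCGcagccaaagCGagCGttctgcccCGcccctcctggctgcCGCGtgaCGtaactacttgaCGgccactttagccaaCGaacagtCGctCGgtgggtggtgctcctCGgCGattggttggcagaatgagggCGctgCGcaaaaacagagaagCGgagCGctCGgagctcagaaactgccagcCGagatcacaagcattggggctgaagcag
Pcdh17: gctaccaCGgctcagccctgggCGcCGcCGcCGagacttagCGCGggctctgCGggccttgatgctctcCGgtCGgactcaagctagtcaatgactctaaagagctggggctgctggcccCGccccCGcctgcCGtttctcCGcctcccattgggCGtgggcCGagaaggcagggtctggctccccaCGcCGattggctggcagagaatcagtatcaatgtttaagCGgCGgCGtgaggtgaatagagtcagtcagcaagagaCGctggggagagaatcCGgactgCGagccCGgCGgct
Cdh10: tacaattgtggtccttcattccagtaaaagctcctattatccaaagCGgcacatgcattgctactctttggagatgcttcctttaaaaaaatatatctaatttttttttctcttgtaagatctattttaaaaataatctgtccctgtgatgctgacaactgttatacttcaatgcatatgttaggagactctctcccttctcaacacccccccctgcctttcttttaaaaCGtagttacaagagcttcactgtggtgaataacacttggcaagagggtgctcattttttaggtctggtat

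Pcdh17 has 26 CG dinucleotides in its window, Pcdh10 has 24, Pcdh8 has 14, Pcdh7 has 11 and Cdh10 has 2. Of all 32851 windows of this length in the table, 16.9% hold at least as many as Pcdh17, 20.0% as Pcdh10, 36.3% as Pcdh8, 41.4% as Pcdh7 and 85.9% as Cdh10. The median was 14 over the 23 windows of cadherin genes and 7 over all windows. The E-box CAGGTG, a site type bound by Snail and Zeb repressors, was searched on both strands as CAGGTG or CACCTG. It occurred in 5 of the 23 windows (21.7%), all 3 of Cdh7 and 1 each of Pcdh7 and Pcdh15, beside 20.2% of all windows. In Pcdh7 its first base lies 32 bases after the start site. A match of letters is a description of these windows only.

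Pcdh7 and Pcdh9, both delta-1 protocadherins, were detected in granule cells. Pcdh9, which is expressed in the developing brain, was at 1042 in granule cells, 119 in Sox1 cells, 62.5 in ES cells and 54.9 on the HB9-GFP+-labelled array. Granule cells stood at least 13.2-fold above ES cells, and a second detected probe set gave 3.24 log2 units. Pcdh7 was at 629 in granule cells, 91.8 in Sox1 cells and 0.9 on both other arrays, at least 7.98-fold above ES cells. Its second detected probe set read 210.0 in granule cells and 264.9 in Sox1 cells, a difference of -0.34 against 2.78 on the first. The 2 Pcdh7 probe sets thus differ on whether granule exceeded Sox1 cells, and both lie under the low level in ES cells and the HB9-GFP+-labelled array. Against ES cells the second gave 1.41 for granule cells, which is not a call.

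All 5 delta-2 protocadherins were detected in granule cells and 4 of them in Sox1 cells. Pcdh8, which encodes the paraxial protocadherin also known from neuronal synapses, was at 12810 in Sox1 cells, against 909 in granule cells, 217 in ES cells and 179 on the HB9-GFP+-labelled array. It was 58.9-fold higher in Sox1 cells than in ES cells and 14.1-fold lower in granule cells than in Sox1 cells. Both of its probe sets gave nearly the same differences, 5.82 and 5.88 log2 units for Sox1 against ES cells. Granule cells were 4.18-fold above ES cells, a call that sits at the threshold and ends under quantile normalization, at 1.97 log2 units. Pcdh18 was also highest in Sox1 cells, at 1318, with 545 in granule cells, 74.2 in ES cells and 69.4 on the HB9-GFP+-labelled array. It was at least 16.7-fold higher in Sox1 cells and at least 6.92-fold higher in granule cells than in ES cells. Its second detected probe set gave 1.61 and 0.37 log2 units, neither of them a call. That probe set was at 11.9 in ES cells, under the low level, so neither difference could be negative. In granule cells it was undetected, at 101.9.

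Pcdh17 and Pcdh10 were highest in granule cells. Pcdh17 was at 841 there, 196 in Sox1 cells, 30.9 in ES cells and 2.5 on the HB9-GFP+-labelled array. It was at least 10.7-fold above ES cells and 4.29-fold above Sox1 cells, the latter at 1.97 log2 units under quantile normalization and 1.52 on its second probe set. Pcdh10 was at 406 in granule cells, 60.7 in Sox1 cells, 3.6 in ES cells and 1.6 on the HB9-GFP+-labelled array. Of its 6 probe sets 3 were detected, all in granule cells only, which fixes the direction of all 3. Granule cells were at least 5.16-fold above ES cells on the brightest, while the probe set with the highest mean of log2 signals was undetected and differed by 0.43 log2 units. Pcdh19, whose human counterpart is mutated in an epilepsy of girls, differed least among the delta-2 genes, at 219 in ES cells, 213 on the HB9-GFP+-labelled array, 682 in Sox1 cells and 288 in granule cells. Of the other protocadherins, Pcdh20 was detected in granule cells alone, at 290.5, with 25.9 in Sox1 cells, 48.2 in ES cells and 5.8 on the HB9-GFP+-labelled array. Pcdh15, a protein of the tip link of inner ear hair cells, was detected there alone too, at 209.9, with 1.8, 44.7 and 1.5 in that order. It has 3 probe sets, and the others were undetected on all 4 arrays.

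**Figure D2:**
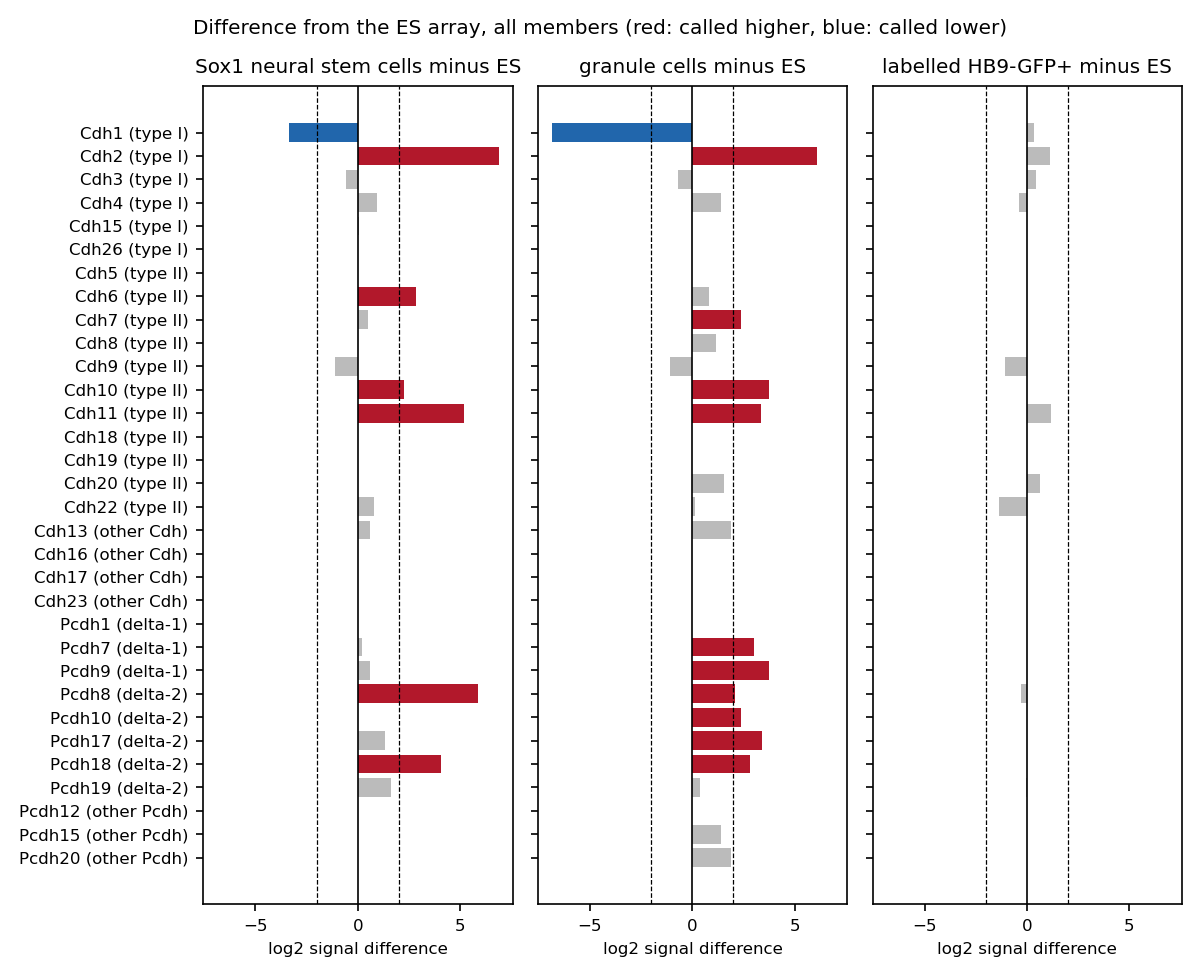
Difference in log2 signal from the ES array for all 32 genes (rows, grouped by structure), for the Sox1 array, the granule array and the HB9-GFP+-labelled array, with values under the low level set to it and dashed lines at 2 log2 units. Cdh1 is the single blue bar on the Sox1 and granule panels, 6 and 10 genes are red there, and the panel of the HB9-GFP+-labelled array has no coloured bar.

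Counted over all 32 genes, 10 cadherins were higher and 1 lower in granule cells than in ES cells, 31.2% and 3.12% of the group, beside 7.15% and 5.09% of all genes. Their median log2 difference was 0.98 and that of all genes 0.00. In Sox1 cells against ES cells 6 were higher and 1 lower, 18.8% and 3.12%, beside 3.7% and 3.09% of all genes, with both medians at 0.00. Between the HB9-GFP+-labelled array and the ES array no cadherin was called in either direction, beside 1.15% higher and 0.857% lower over all genes, and the differences ran from -1.39 for Cdh22 to 1.16 for Cdh11. Granule cells had 4 genes higher and 3 lower than Sox1 cells, 12.5% and 9.38%, beside 3.89% and 2.14% of all genes. The higher genes were Pcdh7, Pcdh9, Pcdh10 and Pcdh17 and the lower ones Cdh1, Cdh6 and Pcdh8. Summed markers of several other cell types were also brighter in granule than in Sox1 cells. The list of astrocytes and Bergmann glia summed to 25305 in granule and 1334 in Sox1 cells, that of the oligodendrocyte lineage to 24688 and 579, and that of Purkinje cells and interneurons to 10989 and 602. Fibroblast markers summed to 7759 and 1221 and those of microglia to 5488 and 245, and the part of these cells in the result was not tested. Pdgfra, at 2874 in granule and 223 in Sox1 cells, counts in both the fibroblast and the oligodendrocyte sums. Granule neuron markers rose as well, at 63008 and 13661. Markers of choroid plexus and meninges went the other way, at 611 and 1819, and endothelial markers were near level, at 447 and 421. Against granule cells the HB9-GFP+-labelled array had 1 cadherin higher and 10 lower, beside 5.63% and 7.72% of all genes. Against Sox1 cells it had 1 higher and 7 lower, beside 3.3% and 4.08%. These 6 comparisons share arrays, so their counts are not independent of each other.

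Taking the 4 arrays at once, a gene was placed with a set of arrays where each of them passed the 4-fold rule against each array outside the set. Pcdh7, Pcdh9, Pcdh10 and Pcdh17 were higher in granule cells than on every other array, beside 2.95% of all genes. Between granule and Sox1 cells the second detected probe set gave -0.34 log2 units for Pcdh7 and 1.52 for Pcdh17. This group of 4 became 0 with probe sets averaged and 2 with the probe set of the highest mean log2 signal. Cdh6 and Pcdh8 stood highest in Sox1 cells in the same way, beside 0.643% of all genes. For Cdh6 this rests on -2.07 log2 units between granule and Sox1 cells, close to the threshold. That difference was -1.74 with 50 added to each signal and -1.28 with its probe sets averaged, neither of them a call. Both neural arrays exceeded both others for Cdh2, Cdh10, Cdh11, Pcdh8 and Pcdh18, beside 1.66% of all genes. Cdh1 was the single cadherin higher in ES cells and the HB9-GFP+-labelled array than on both neural arrays, beside 1.36%. It also met the rule for those 2 arrays and the Sox1 array together against the granule array, beside 0.874%. No cadherin was placed with the ES array alone, the HB9-GFP+-labelled array alone, or any mixed pair. Of all genes, 0.275% were placed with the ES array alone and 0.44% with the HB9-GFP+-labelled array alone. The mixed pairs each held between 0.0055% and 0.0934% of all genes. At shares this small, the absence of cadherins does not set them apart from all genes.

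**Figure D3:**
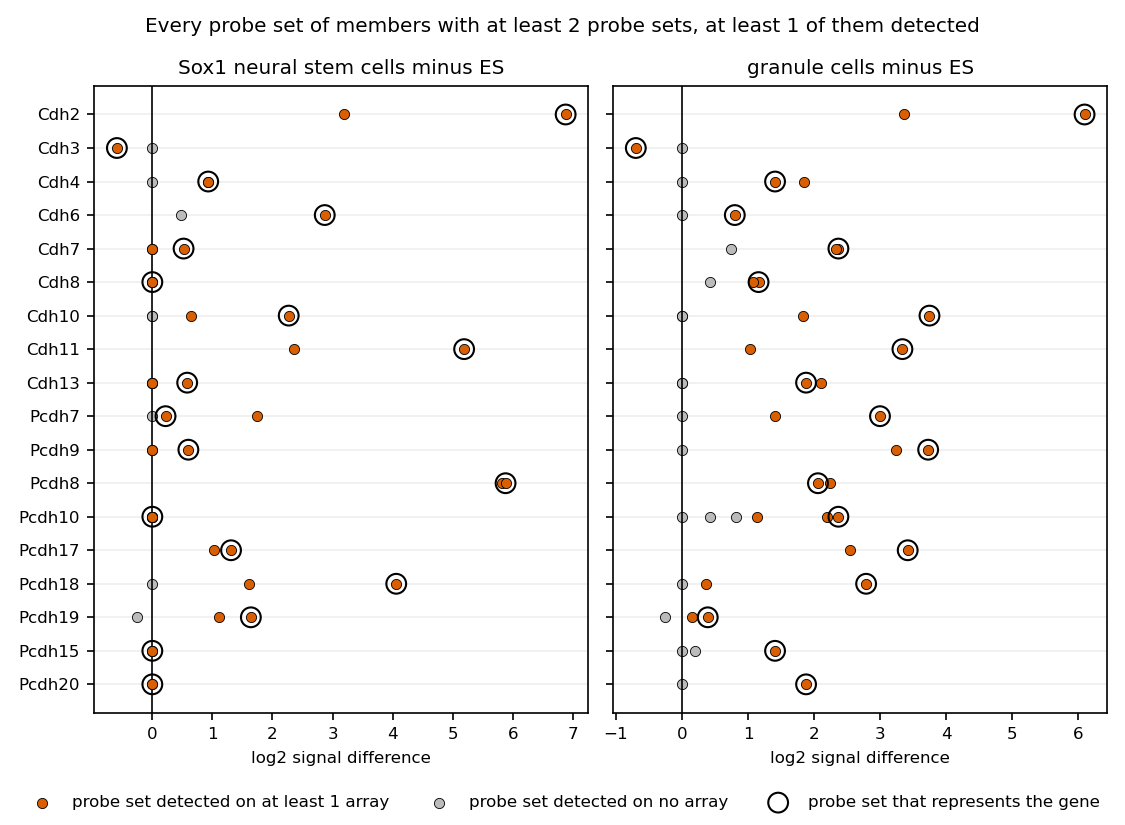
Log2 signal difference from the ES array of every probe set of the 18 genes with at least 2 probe sets and at least 1 detected, for the Sox1 array (left) and the granule array (right). Filled orange points are probe sets detected on at least 1 array, grey points are detected on none, and rings mark the probe set that represents the gene; Cdh2 lies at 6.88 and 3.19 on the left, and the points of Pcdh8 nearly coincide.

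Detected probe sets of 1 gene mostly shared the sign of a difference and differed in its size. Of the 70 probe sets of these genes, those of 21 genes come in groups of 2 or more. Among genes called between granule and ES cells, 9 had at least 2 detected probe sets and all 9 had the same sign on each. Apart from those of Pcdh8, each of these probe sets lay under the low level in ES cells. Detection in granule cells then fixes the sign, so this count cannot measure agreement between probe sets. The spread among detected probe sets of 1 gene had a pooled SD of 0.89 log2 units for cadherins in that comparison and 0.74 for all genes. For Sox1 against ES cells these were 1.42 over 7 cadherins and 0.56. With each gene taken as the mean over all its probe sets, dark ones included, the cadherins called higher fell from 10 to 4 in granule cells and from 6 to 3 in Sox1 cells, each against ES cells. Over all genes the same averaging took the higher calls from 1301 to 781 and from 674 to 387.

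Several of these genes lie next to each other in the RefSeq annotation of GRCm38.p6 with no protein-coding gene between them. Cdh3 and Cdh1 are adjacent, and Cdh3 moved by -0.70 log2 units between ES and granule cells where Cdh1 moved by -6.86. Cdh8, Cdh11 and Cdh5 follow each other, of which Cdh11 alone was detected in Sox1 cells. In the run Cdh6, Cdh9 and Cdh10, the first was highest in Sox1 cells and the last in granule cells. Cdh9 was just above detection in ES cells, at 169, and was called in no comparison. Pcdh20 and Pcdh9 are neighbours that were both highest in granule cells. Cdh7 lies beside Cdh19, which was at or under 4.9 on every array.

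Genes of proteins that work with cadherins were counted in lists by role, to be read beside the shares of all genes, which were 7.15% higher and 5.09% lower in granule and 3.7% and 3.09% in Sox1 cells, each against ES cells. Of 14 catenin-family genes, 2 were higher and 2 lower in granule cells than in ES cells, and a single gene of 14 would already be near those shares. Beta-catenin, Ctnnb1, was called in no comparison, at 21630 in ES cells, 19842 on the HB9-GFP+-labelled array, 24397 in Sox1 cells and 16561 in granule cells. The higher genes were the neural members, of which Ctnnd2 was also higher in Sox1 cells. Ctnna2, the neuronal alpha-catenin, was at 18.1 in ES cells, 36.9 on the HB9-GFP+-labelled array, 191 in Sox1 cells and 1494 in granule cells. Ctnnd2, the neural delta-catenin, was at 90.1, 109, 1154 and 3231 in that order. Jup, or plakoglobin, was at 572, 457, 86.1 and 192, and was called lower than in ES cells for Sox1 cells only. The desmosomal plaque gene Pkp2 was at 3904, 4950, 1440 and 17.4, called lower in granule cells, as was Ctnnal1. Of 14 adherens junction partners none was higher and 5 were lower in granule cells than in ES cells, beside 5.09% of all genes, and none was called between Sox1 and ES cells. Ajuba was at 1476, 4225, 3748 and 185, and Nectin2, an adhesion receptor of the junction, at 1176, 1586, 862 and 164. The actin crosslinkers Actn1, at 6657, 8383, 7049 and 1208, and Actn4, at 3112, 4477, 2888 and 871, were also dimmest in granule cells, though Actn4 was called only against the HB9-GFP+-labelled array.

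Lists of genes that regulate E-cadherin came next. Among 9 epithelial regulators, 4 were lower in granule cells and 3 in Sox1 cells than in ES cells, beside 5.09% and 3.09% of all genes, and none was higher. Epcam, an epithelial adhesion gene, was at 4561 in ES cells, 6312 on the HB9-GFP+-labelled array, 429 in Sox1 cells and 157 in granule cells, and Grhl3 was at 552, 607, 122 and 5.6. Klf4, a factor of both pluripotency and epithelia, was at 10450, 10034, 1399 and 1579. Esrp1, an epithelial splicing factor, was at 180.5, 622, 47.5 and 2.1, and was called only between the HB9-GFP+-labelled array and each neural array. Of 10 repressors and mesenchymal regulators, 2 were higher and 1 lower in granule cells than in ES cells, and 1 was higher in Sox1 cells. Beside 7.15%, 5.09% and 3.7% of all genes, single genes in a list of 10 are near those shares. Zeb2, a repressor that binds E-boxes, was at 45.7, 49.0, 1333 and 1418 in the same order of arrays, and Tcf4 at 2331, 975, 4502 and 16348. Zeb1 was at 1570, 1027, 3083 and 5399.9, called only between the HB9-GFP+-labelled array and granule cells. Snai2 ran the other way, at 617, 381, 379 and 119, and Snai1 was under detection on every array. The cadherin-cleaving protease Adam10 was called in no comparison, at 3917 in ES cells and 6826 in granule cells, and 1 of the 9 proteases measured was higher in granule cells than in ES cells, near the 7.15% of all genes. This was Mmp14, a membrane-bound matrix protease, at 127, 515, 288 and 803.

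Desmosomal cadherins and atypical cadherins, which are related to the genes above, were called in opposite directions in neural against ES cells. Among 7 desmosomal genes, 3 were lower in both Sox1 and granule cells than in ES cells, beside 3.09% and 5.09% of all genes, and none was higher. They were Dsg2 at 3610 in ES cells, 4417 on the HB9-GFP+-labelled array, 282 in Sox1 cells and 42.9 in granule cells, Dsc2 at 676, 107, 115 and 51.4, and Dsp at 1471, 731, 279 and 36.0. Dsc2 was also lower on the HB9-GFP+-labelled array than in ES cells. Of 17 atypical cadherins, 5 were higher in granule cells and 4 in Sox1 cells than in ES cells, beside 7.15% and 3.7% of all genes, with none lower. Fat3 was at 33.8, 36.5, 1278 and 649, and Celsr2 at 122, 154, 1438 and 2174. Fat4, a planar polarity cadherin, was at 1.6, 61.6, 2533 and 462, and Celsr3, a cadherin of axon tracts, at 193, 85.5, 214 and 974. In the WAVE complex, an actin regulator that delta-protocadherins bind, 1 of 8 measured genes was lower in granule than in ES cells, near the 5.09% of all genes. This was Wasf2, at 6255, 5059, 2302 and 1215, and Cyfip2, at 390.5, 173, 475 and 1536, was called only between the HB9-GFP+-labelled array and granule cells.

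**Figure D4:**
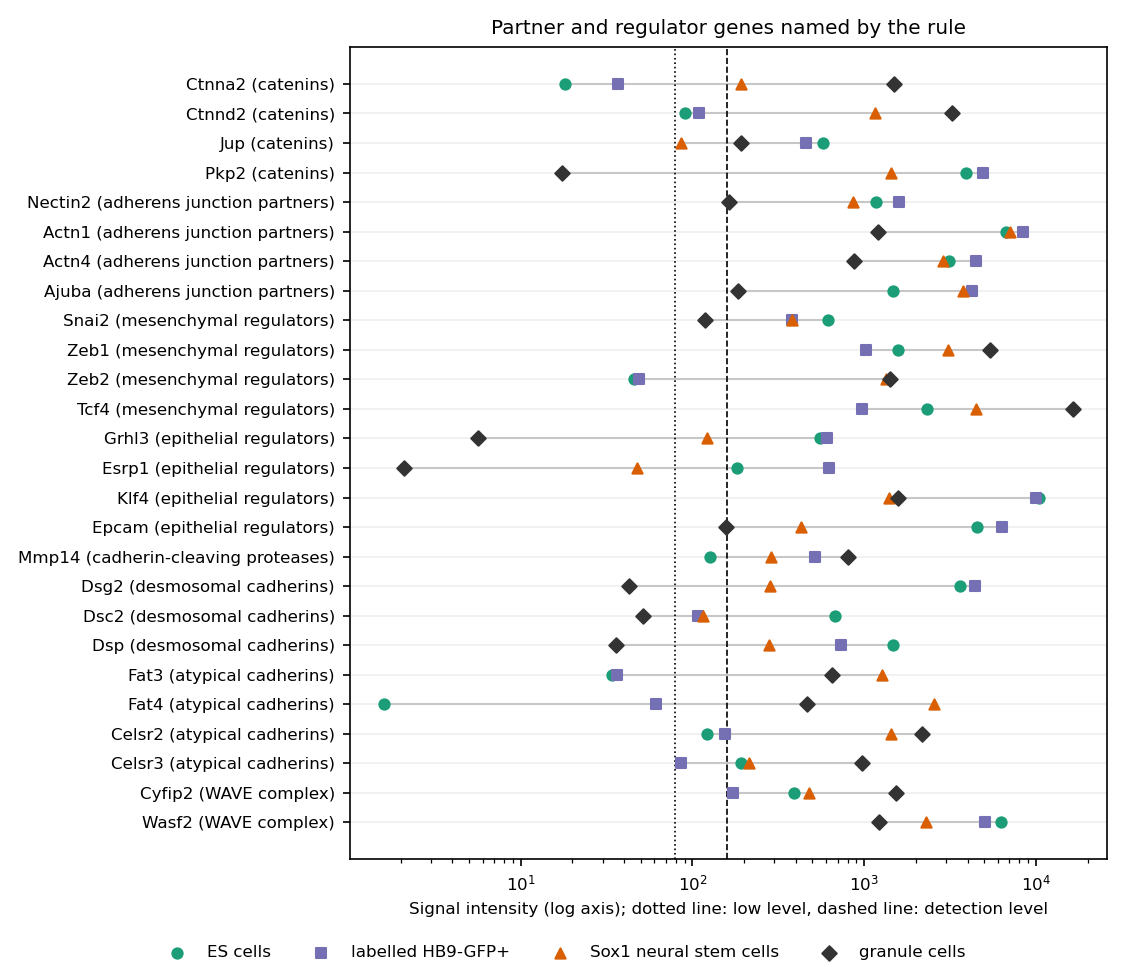
Signal on the 4 arrays, on a log axis, of the 26 partner and regulator genes with the largest called differences in their lists, with the low level dotted and the detection level dashed. Ctnna2, Ctnnd2, Zeb2, Fat3, Fat4 and Celsr2 are dim in ES cells and the HB9-GFP+-labelled array and bright on both neural arrays or the granule array. Epcam and Dsg2 show the opposite order, and Pkp2 is dim in granule cells only.

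The scaling of the granule array bears on every granule value. The 18 hybridisation controls were 0.66 log2 units dimmer on it than in ES cells, with an SD of 0.06, while they differed by 0.01 between the Sox1 and ES arrays. Centring on 8 reference genes moved the median of all genes detected on either array from -0.08 to 0.40 log2 units for granule against ES cells, and gave 12 cadherins higher and 1 lower in place of 10 and 1. Over all genes centring gave 1869 higher and 637 lower in place of 1301 and 926. For granule against Sox1 cells it gave 6 cadherins higher and 2 lower in place of 4 and 3, ending the call of Cdh6 at -1.63, and quantile normalization gave 3 and 3. All genes called there numbered 1062 and 279 with centring and 635 and 483 with quantile normalization, in place of 708 and 389. No called cadherin changed sign under either scaling.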

How the data were processed

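RNA of 4 cell populations was measured on 1 Affymetrix mouse array each. The deposited values are signal intensities per probe set on a linear scale. GCRMA is named in the submitters' processing notes without a version, yet each array's trimmed mean (2% left out at each end) is 500.0, the form of a scaled average signal, so which method made the values is unsettled. The genome build is not given in the sources used here. Of 45101 probe sets, 34945 carry 1 symbol in the platform annotation, 932 several and 9160 none, and the other 64 are controls, whose symbols were not used. All 70 cadherin probe sets matched a RefSeq gene ID of GRCm38.p6, and 0 symbols changed. Where a gene had several probe sets, the one with the highest mean deposited signal stood for it. The array number, 1 per group, limits precision, and no p-value or interval can be given.

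Calls, folds and bounds were computed with Python 3.11.15, pandas 2.3.3 and numpy 2.4.6, and figures were drawn with matplotlib 3.10.9. The rule of size was tested on simulated data with large changes in bright genes and little noise. That test does not speak for calls near the threshold or for dim genes. Every member detected on an array is named, as are up to 4 called genes per partner list with the largest differences. Ctnnb1, Ctnnal1, Adam10, Snai1, Olig2, Mnx1 and Gabra6 are named besides, after their values were seen. The members and lists were chosen with earlier results of these data known. Alternatives were 8 listed settings and 2 added after seeing the data.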

Additional observations from a re-analysis of the deposited data

How the results depend on the processing

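Each group has 1 array, so no replicate could be left out. No paired analysis was possible because each group has 1 array. Of 44 cadherin calls over the 6 comparisons, 44 held with each array's own median as low level and without the probe sets of the types _s_at, _x_at and _a_at. Centring on reference genes kept 43, quantile normalization 40, adding 50 to the signal 39 and averaging a gene's probe sets 21. Of the alternatives chosen after seeing the data, a low level without the HB9-GFP+-labelled array kept 44, and the probe set with the highest mean of log2 signals kept 38. Signals near the low level have no order.

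A 2-fold threshold gave 16 cadherins higher and 2 lower for granule against ES cells, 2 lower for Sox1 against ES cells, 2 higher and 2 lower for the HB9-GFP+-labelled array against ES cells, and 11 higher and 6 lower for granule against Sox1 cells. The HB9-GFP+-labelled array then had 2 higher and 16 lower than granule cells and 2 higher than Sox1 cells. Among all 18193 genes this threshold gave 2865 higher and 2763 lower for granule and 2031 and 2048 for Sox1 against ES cells. The HB9-GFP+-labelled array against ES cells had 1224 and 1279, so its 2 and 2 of 32 cadherins were near the share of all genes. Granule against Sox1 cells had 1912 and 1603 genes. The HB9-GFP+-labelled array had 2965 and 2967 against granule and 2115 and 2127 against Sox1 cells. The 2-fold threshold placed 5 cadherins with Sox1 cells alone and 10 with granule cells alone. Averaging probe sets gave 4 higher for granule and 3 for Sox1 against ES cells, 0 higher for granule against Sox1 cells, and 4 lower for the HB9-GFP+-labelled array against each neural array. Over all genes averaging gave 781, 387 and 436 higher in that order. On the HB9-GFP+-labelled array it gave 865 genes lower than in granule cells and 407 lower than in Sox1 cells. It left 2 detected on the HB9-GFP+-labelled array and 11 in granule cells, and placed 1 with the Sox1 array, 0 with the granule array and 3 with both. Its construction counts undetected probe sets. Detection at 2 log2 units, which cannot end a call that already needs such a difference from the low level, left 1 in ES cells, 1 on the HB9-GFP+-labelled array, 10 in Sox1 cells and 11 in granule cells. Reference centring left 2 detected on the HB9-GFP+-labelled array and 1 placed with the Sox1 array. Adding 50 gave 1 lower for the HB9-GFP+-labelled array against ES cells, beside 106 of all genes. It placed 1 with the Sox1 array and 3 with both neural arrays, and quantile normalization also 3. With the highest mean of log2 signals, 2 were higher in granule than in Sox1 cells, beside 665 of all genes. Under that setting 2 were placed with the granule array, and Pcdh7 reversed between granule and Sox1 cells, at -0.34. For causes other than those stated, the cause was not tested.

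Over all genes, reference centring moved the share of calls that were higher from 58.4% to 74.6% for granule against ES cells, from 64.5% to 79.2% for granule against Sox1 cells and from 42.2% to 22.3% for the HB9-GFP+-labelled array against granule cells. Quantile normalization moved it from 57.4% to 67.9% for the HB9-GFP+-labelled array against ES cells.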
